A study of Mus musculus with 9 samples.

Results

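Motile cilia genes were followed in 9 mouse ovary RNA-seq libraries, 3 each from postnatal days 8, 50 and 65. The members are the 62 rows, of 55487 in each gene table, whose symbol begins with Cfap (32 rows), Dnah (16), Rsph (8) or Tekt (5) and a digit, or is Foxj1. All 9 libraries came from C57BL/6 mice whose labels give an oocyte-specific knock-in of PIK3CA*, a form of the catalytic subunit of phosphoinositide 3-kinase, and the series' design text calls the material tumor samples. Every age carries the knock-in, so the 3 ages are compared with each other and no effect of the knock-in itself can be read. The labels name no driver for the oocyte expression. Nothing states that the 3 libraries of an age were separate animals, so the p-values below measure the spread between these libraries.

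A motile cilium beats because dynein motors, set in outer and inner arms along 9 microtubule doublets, slide the doublets against each other, while radial spokes and a central apparatus time the stroke. Foxj1 and the RFX factors switch on most of these genes in cells that carry motile cilia. In the female tract such cells line the oviduct beside the secretory cells that make Ovgp1, and sperm tails use the same structure with several proteins of their own. Most other cells, granulosa cells and oocytes included, carry at most an immotile primary cilium, which needs intraflagellar transport but none of the dynein arms.

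The libraries held 14116908 to 18868831 estimated counts each. They differed in the length of the transcripts they held, in part together with age, so that length and age cannot be fully told apart: the mean effective transcript length, weighted by TPM (a level per transcript length), came to 1203 bases for day 8 replicate 1 and to between 1071 and 1195 bases for the day 65 libraries, against 1564 to 1750 bases for the other 5, so changes were also computed with the trend over gene length removed. Levels below are CPM, counts scaled to library size with TMM normalization, unless TPM is named, and fold changes, their standard errors and Benjamini-Hochberg adjusted p-values come from edgeR's quasi-likelihood test over 17747 genes, with calls at an adjusted p under 0.05. Of the 62 members 46 passed the low-count filter and were tested. Of the other 16, Cfap97d1, Rsph6a and Tekt3 had no count in any library. As a check of the tissue label, the granulosa transcription factor Foxl2 was at 122, 194 and 146 CPM at day 8, 311, 301 and 320 CPM at day 50 and 529, 396 and 474 CPM at day 65.

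At day 50, 3 members were higher and 13 lower than at day 8, among 46 tested. Over all tested genes 19.5% were called higher and 21.4% lower in that comparison, 40.8% in either direction. The median log2 fold change of the 46 was -0.28, against -0.04 over all tested genes. With the trend over gene length removed the calls split 5 higher and 11 lower, and with length and GC trends removed 5 higher and 10 lower. The 13 that fell included 6 dynein heavy chains and 7 Cfap genes, and no radial spoke gene or tektin was called.

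**Figure D1:**
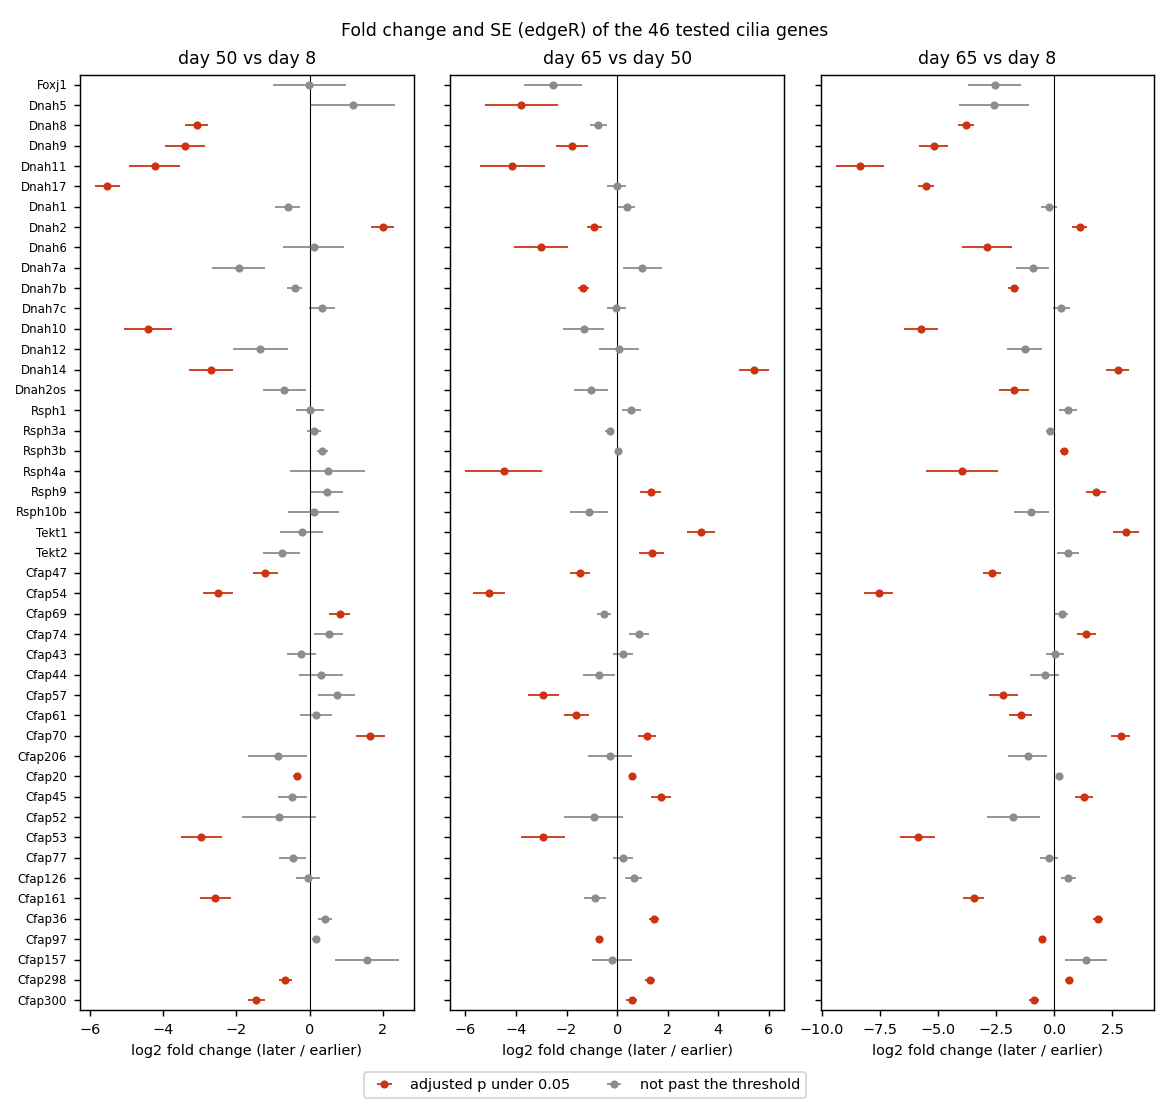
Log2 fold change (later age over earlier age) with its standard error for the 46 tested cilia genes, ordered by role, in 3 comparisons with their own axes. Red points passed an adjusted p of 0.05; 4 of the 5 outer arm dyneins, all but Dnah5, sit far left in the comparisons with day 8, and Tekt1 and Dnah14 sit far right in the comparison of day 65 with day 50.

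The outer arm heavy chains, the motors that set the beat frequency, had the largest median change of any role at day 50. Of 5 tested, 4 fell at day 50 relative to day 8, against 21.4% of all tested genes. The median log2 fold change over the 5 was -3.41. The same number were called lower at day 65 than at day 8, against 32.6% of all tested genes, with a median of -5.20. In bulk RNA, fewer cells of a type and less RNA per cell cannot be told apart.

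Dnah17 (chromosome 11, 118023080 to 118125944 in the files, minus strand), an outer arm chain best known from sperm tails, was at 31.1, 43.9 and 37.8 CPM in the 3 day 8 libraries, at 0.343, 1.0 and 1.07 CPM at day 50, and at 0.663, 0.916 and 0.805 CPM at day 65. The day 8 libraries stood apart from both later ages with no overlap, and the later ages overlapped. The log2 fold change was -5.52 ± 0.34 (SE) at day 50 against day 8, with an adjusted p of 2.38e-06, and -0.02 ± 0.39 at day 65 against day 50, which did not pass. Dnah9, a beta-type chain of airway cilia (chromosome 11, 65831282 to 66168551), was at 17.4, 27.4 and 30.2 CPM at day 8, at 4.17, 1.17 and 1.73 CPM at day 50, and at 0.0829, 0.982 and 0.862 CPM at day 65. Neither later age overlapped day 8. Its log2 fold change was -3.41 ± 0.54 at day 50 against day 8 (adjusted p = 0.000806; -4.05 without day 50 replicate 1) and -5.20 ± 0.63 at day 65 against day 8 (adjusted p = 7.04e-05).

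Dnah11 (chromosome 12, 117877982 to 118199043), a chain known from the proximal part of human airway cilia, was at 9.27, 10 and 10.2 CPM at day 8, at 1.26, 0.0557 and 0.255 CPM at day 50, and at 0, 0 and 0.0575 CPM at day 65. All day 8 libraries lay above every later library. Its log2 fold change at day 50 against day 8 was -4.23 ± 0.70 (adjusted p = 0.000893), and -5.85 without day 50 replicate 1, the highest of its age. At day 65 it had 1 count in all, against 479 at day 8, a level 442-fold lower at day 65 (exact binomial 95% interval 79.0 to 17500, counting error only). Dnah8, the gamma-type chain of sperm tails (chromosome 17, 30626936 to 30875762), was at 12.8, 16.3 and 18.1 CPM at day 8, at 2.06, 1.06 and 2.45 CPM at day 50, and at 0.995, 1.05 and 1.26 CPM at day 65. It too separated day 8 from the later ages, by a log2 fold change of -3.08 ± 0.32 at day 50 against day 8 (adjusted p = 4.83e-05). Dnah5, the gamma-type chain of airway cilia, did not share this pattern and is described with day 50 replicate 1.

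Among the inner arm chains, which shape the bend, Dnah10 (chromosome 5, 124725085 to 124834303) moved like the outer arm chains: 14.3, 19 and 16.8 CPM at day 8, 1.77, 0.334 and 0.255 CPM at day 50, and 0.0829, 0.196 and 0.575 CPM at day 65. No later library reached the day 8 range, and the log2 fold change at day 50 against day 8 was -4.41 ± 0.65 (adjusted p = 0.000511), or -5.75 without day 50 replicate 1. Dnah10 and Dnah2 are the heavy chains of the same double-headed inner dynein, and at day 50 against day 8 they changed in opposite directions. Dnah2 (chromosome 11, 69420809 to 69549110) was at 2.08, 1.34 and 1.29 CPM at day 8, at 6.81, 5.02 and 6.98 CPM at day 50, and at 2.9, 2.81 and 4.31 CPM at day 65. Every day 50 library was above every library of the other ages, with a log2 fold change of 2.00 ± 0.32 against day 8 (adjusted p = 0.000728). The drop of -0.90 at day 65 against day 50 (adjusted p = 0.0275) lost its call in 4 of the fits that left out a library and with the length trend removed, where it was -0.02. An antisense RNA, Dnah2os, shares 312 exon bases with Dnah2 on the other strand, and no source used here says whether counting used strand.

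Promoters of 3 of these genes are shown because the genes carried large falls, as 250 bases before the start given by RefSeq (GRCm38.p6). Capitals mark the forkhead core TGTTTAC or the RFX core GTTGCC in either orientation; the Dnah17 start lies upstream of the gene end in the files.
Dnah17 (chr11:118129220-118129469, minus strand): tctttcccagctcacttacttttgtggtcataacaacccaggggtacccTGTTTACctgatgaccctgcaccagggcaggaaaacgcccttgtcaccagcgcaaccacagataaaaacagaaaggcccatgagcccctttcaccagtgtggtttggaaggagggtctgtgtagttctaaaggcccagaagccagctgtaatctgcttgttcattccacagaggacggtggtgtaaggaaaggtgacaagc
Dnah10 (chr5:124724835-124725084, plus strand): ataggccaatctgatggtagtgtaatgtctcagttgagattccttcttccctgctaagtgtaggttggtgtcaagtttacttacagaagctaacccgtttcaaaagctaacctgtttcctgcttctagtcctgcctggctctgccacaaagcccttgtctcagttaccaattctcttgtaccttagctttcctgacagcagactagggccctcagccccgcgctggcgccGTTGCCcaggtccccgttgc
Dnah9 (chr11:66168552-66168801, minus strand): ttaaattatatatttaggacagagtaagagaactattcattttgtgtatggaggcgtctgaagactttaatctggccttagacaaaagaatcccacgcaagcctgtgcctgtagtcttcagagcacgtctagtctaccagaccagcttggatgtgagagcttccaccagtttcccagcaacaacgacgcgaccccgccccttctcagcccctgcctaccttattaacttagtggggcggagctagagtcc
Dnah17 holds a forkhead core, Dnah10 an RFX core, and Dnah9 neither.

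Several genes outside the dynein arms were also lower at day 50 than at day 8. Cfap54, a central apparatus protein (chromosome 10, 92775619 to 93081618), was at 20.5, 50.6 and 45.8 CPM at day 8, at 6.92, 7.97 and 5.81 CPM at day 50, and at 0.0829, 0 and 0.46 CPM at day 65. Its levels stepped down at each age without overlap: the log2 fold change was -2.50 ± 0.42 at day 50 against day 8 (adjusted p = 0.00111) and -5.07 ± 0.64 at day 65 against day 50 (adjusted p = 0.000188). Without day 65 replicate 3, the highest of its age, the second value was -7.28. Cfap161, a protein inside the doublet, was at 16.8, 16.9 and 17.2 CPM at day 8, at 4.52, 2.4 and 1.58 CPM at day 50, and at 0.746, 1.31 and 2.41 CPM at day 65. It fell by 2.58 on the log2 scale at day 50 against day 8 (adjusted p = 0.000856), and the later ages overlapped. Cfap53, another doublet protein, which is needed for left-right asymmetry, was at 2.52, 2.68 and 3.88 CPM at day 8, at 0.572, 0.223 and 0.357 CPM at day 50, and at 0, 0 and 0.115 CPM at day 65. Its log2 fold change at day 50 against day 8 was -2.96 ± 0.56 (adjusted p = 0.00188). Cfap300, which helps assemble dynein arms in the cytoplasm, was at 15.8, 9.95 and 11.1 CPM at day 8, at 4.52, 4.4 and 4.59 CPM at day 50, and at 6.14, 7.07 and 6.9 CPM at day 65. The day 50 libraries all lay below day 8, with a log2 fold change of -1.45 ± 0.22 (adjusted p = 0.000614). Unlike the dyneins above, Cfap300 was called higher at day 65 than at day 50 (0.57, adjusted p = 0.0498), a call lost without any 1 of the 6 libraries of those ages or without day 8 replicate 3.

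**Figure D2:**
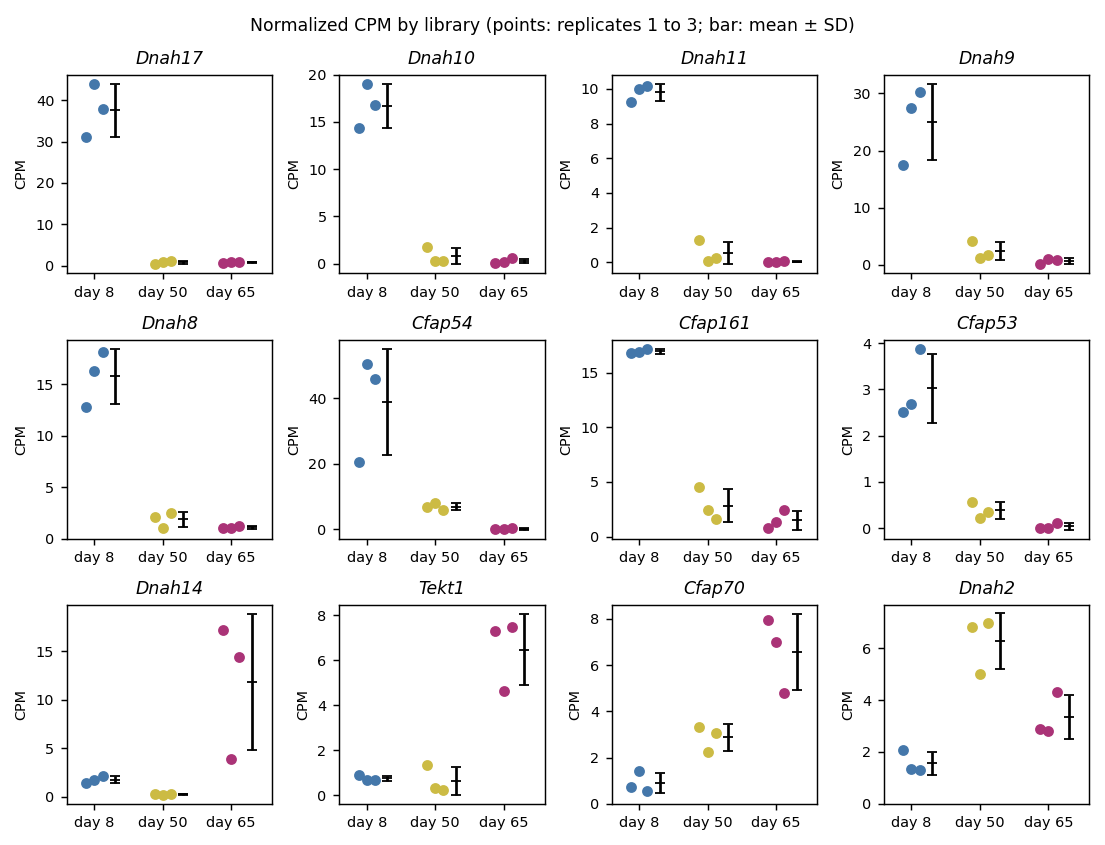
CPM in each of the 9 libraries (linear axes, each panel with its own scale) for 12 cilia genes, with the mean and SD of each age as a bar. The first 8 panels are high at day 8 and the last 4 are higher at day 50 or day 65, with day 65 replicate 2 the lowest of the 3 day 65 libraries for Dnah14 at 3.93 CPM.

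Oocyte markers moved with these genes. Their list of 15 summed to 3367 to 3716 CPM at day 8, against 114.1 to 167.9 CPM at day 50 and 63.60 to 130.5 CPM at day 65. Of the 15, 13 were lower at day 50 than at day 8, with a median log2 fold change of -4.88. All 15 were lower at day 65 than at day 8. Against day 8, 21.4% of all tested genes were lower at day 50 and 32.6% at day 65. Granulosa markers moved the other way, with 10 of 12 higher at day 50 than at day 8 (median 3.08), against 19.5% of all tested genes. Among 12 markers of haploid male germ cells, 6 to 9 were at 0 in each library, Tnp1 was at 0 in all 9, and nearly all of the list's sum came from Odf2, also a centrosome protein. The part of these cells in the fall of the dyneins was not tested.

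Factors that start a multiciliated program were lower or not called at day 50 against day 8, where 21.4% of all tested genes were lower. Of 8 tested genes of that list, 3 were lower at day 50 than at day 8: Ccno, a cyclin-like protein for basal body amplification, at 5.09, 3.18 and 6.17 CPM at day 50, against 104, 138 and 149 CPM at day 8; Rfx2, an RFX factor, by a log2 fold change of -1.95; and E2f5 by -2.14. Mcidas, which starts the program, had 1 library above 0, at 0.0572 CPM. In the nexin link list, 1 of 10 tested genes was called at day 50 against day 8, where 40.8% of all tested genes were called. That list covers the complex between neighbouring doublets and the axonemal ruler genes Ccdc39 and Ccdc40. The called gene was Iqca, at 2.12, 0.613 and 0.561 CPM at day 50, against 17.1, 25.6 and 32.9 CPM at day 8.

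Counts of the dyneins that were high at day 8 were assigned in part to transcripts shorter than the longest one. RSEM reports for each gene a mean transcript length, weighted by the estimated abundance of each transcript and not by its reads. For Dnah8 that length was 6.77% to 7.39% of the longest annotated transcript of 16685 bases at day 8, where it had 774 counts. For Dnah9 it was 20.6% to 26.4% at day 8, and for Dnah17 46.6% to 52.1%. Dnah5 and Dnah12, with 41 and 100 counts at day 8, were at 100%, and Dnah6, with 50 counts, was at 98.3% to 98.9%. Dnah5 has 1 annotated transcript, so its value is 100% whatever the reads and cannot be set against the others. The RSEM length does not say where in a gene the reads fell. For Dnah8 and Dnah9 most of the estimated day 8 abundance thus lay in transcripts shorter than the longest. The share of counts that these took was not computed.

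**Figure D3:**
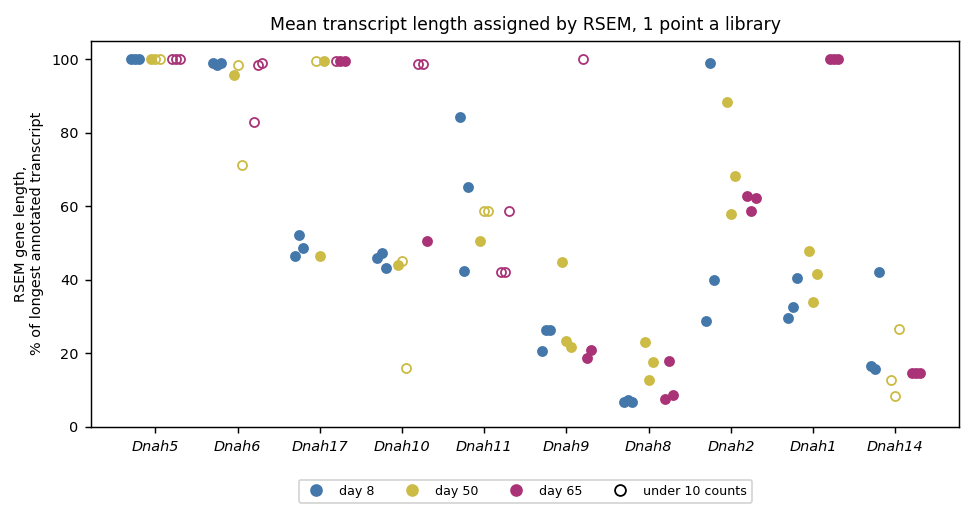
RSEM gene length as a percentage of the longest annotated transcript for 10 dynein heavy chains, 1 point a library, colored by age; open points have under 10 counts. Dnah5 has 1 annotated transcript, which fixes it at 100% in every library. Dnah8 lies between 6.77% and 7.39% at day 8, and Dnah14 is at 14.6% in all 3 day 65 libraries.

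At day 65, 10 members were higher and 13 lower than at day 50, among 46 tested, where 27.5% of all tested genes were called higher and 28.4% lower, 55.9% in either direction. The median log2 fold change was -0.29, against -0.06 over all tested genes. Scaling by library size alone gave 6 higher and 15 lower, and it moved the median of all genes to -0.31. With the trend over gene length removed 8 were higher and 9 lower. Only 6 of the 10 higher calls and 6 of the 13 lower calls were kept there. Against day 8, 10 were higher and 17 lower at day 65, where 29.7% and 32.6% of all tested genes were called, 62.3% in either direction. Here the members' median was -0.69, against -0.05 over all tested genes. With the length trend removed 11 were higher and 13 lower than at day 8, and the medians were -0.28 and 0.23.

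Markers of epithelia that line or adjoin the ovary moved at day 65 too. Of 11 ovarian surface epithelium markers, 9 were lower at day 65 than at day 50 (median log2 fold change -2.58) and 10 were lower than at day 8 (-2.29). Over all tested genes 28.4% were lower and 27.5% higher at day 65 than at day 50 (median -0.06). Against day 8 the shares were 32.6% and 29.7% (median -0.05). The surface markers summed to 1248 to 2051 CPM at day 8, 1036 to 1488 CPM at day 50 and 306.3 to 579.6 CPM at day 65, and none was at 0 in any library. Of 11 oviduct secretory markers, 7 were lower and 1 higher at day 65 in each comparison (median -1.67 against day 50 and -1.80 against day 8). They summed to 328.6 to 544 CPM at day 8, 509.8 to 802 CPM at day 50 and 77.04 to 260.6 CPM at day 65, with 0 to 2 of them at 0 in a day 65 library. The part of these cells in the day 65 changes was not tested.

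Tekt1, a filament protein inside the doublets (chromosome 11, 72344722 to 72362442), was at 0.89, 0.698 and 0.675 CPM at day 8, at 1.37, 0.334 and 0.255 CPM at day 50, and at 7.3, 4.65 and 7.47 CPM at day 65. Every day 65 library was above every other library, and the log2 fold change was 3.31 ± 0.56 against day 50 (adjusted p = 0.000766; 4.44 without day 50 replicate 1) and 3.10 ± 0.56 against day 8. Cfap70, an outer arm associated protein (chromosome 14, 20394193 to 20452226), climbed at both steps: 0.742, 1.4 and 0.563 CPM at day 8, 3.32, 2.23 and 3.06 CPM at day 50, and 7.96, 7.0 and 4.77 CPM at day 65. The ages did not overlap, and its log2 fold change was 1.66 ± 0.39 at day 50 against day 8 (adjusted p = 0.00711) and 1.19 ± 0.36 at day 65 against day 50 (adjusted p = 0.0169), the second call lost without day 50 replicate 2 (1.04) or day 65 replicate 1 (1.03). Cfap45, in the doublet lumen, was at 1.04, 1.86 and 1.24 CPM at day 8, 1.37, 0.613 and 1.02 CPM at day 50 and 2.74, 3.53 and 3.74 CPM at day 65, with all day 65 libraries highest. Its log2 fold change at day 65 was 1.73 ± 0.39 against day 50 (adjusted p = 0.00398). Rsph9, a spoke head protein, rose by 1.33 ± 0.42 at day 65 against day 50 (adjusted p = 0.0199), a call lost in 3 of the fits that left out a library, with a value of 0.92 without day 65 replicate 1.

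Dnah14, an inner arm chain (chromosome 1, 181576559 to 181815774), was at 1.48, 1.75 and 2.14 CPM at day 8, at 0.286, 0.223 and 0.306 CPM at day 50, and at 17.2, 3.93 and 14.4 CPM at day 65. The day 65 libraries were the highest and the least alike. The log2 fold change was 5.41 ± 0.59 at day 65 against day 50 (adjusted p = 8.03e-05). In all 3 day 65 libraries the RSEM length was 1999 bases, the length of the annotated transcript Dnah14-208 (chromosome 1, 181813458 to 181815774), a retained intron transcript, against 13696 bases for the longest. Its exons share 440 bases with Lbr on the opposite strand. Lbr was at 25.8, 34.9 and 31.0 CPM at day 65, against 26.5, 28.2 and 33.6 CPM at day 50, and was not called between these ages (log2 fold change 0.05, adjusted p = 0.775).

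Widely expressed members had the highest levels. By mean TPM over the 9 libraries the order was Cfap20 (73.4), Rsph3a (57.3), Cfap36 (53.4), Cfap298 (50.0), Rsph3b (40.9) and Cfap97 (13.6). Cfap36, a partner of the small GTPase Arl3, was at 38.9, 26.1 and 29.2 CPM at day 8, at 44.2, 42.9 and 39.0 CPM at day 50, and at 150.0, 103 and 93.8 CPM at day 65. It was highest in every day 65 library, with a log2 fold change of 1.46 ± 0.20 against day 50 (adjusted p = 0.000258). Cfap20, at the inner junction of the doublet, was at 57.1, 48.8 and 49.2 CPM at day 8, at 39.5, 43.1 and 39.6 CPM at day 50, and at 58.1, 60.9 and 62.2 CPM at day 65. Its rise of 0.57 at day 65 against day 50 (adjusted p = 0.00211) lost its call with the length trend removed, at 0.12.

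Cfap298, a dynein assembly factor, was at 31.4, 23.8 and 25 CPM at day 8, at 19.1, 17.6 and 14.2 CPM at day 50, and at 49.8, 34.4 and 40.1 CPM at day 65. It was highest in the day 65 libraries, with a log2 fold change of 1.29 ± 0.19 against day 50 (adjusted p = 0.00032), and 53.6% of its exon bases are overlapped by genes on the opposite strand. Cfap97 was at 37.2, 40.3 and 39.1 CPM at day 8, at 43.5, 45.5 and 43.4 CPM at day 50, and at 27.9, 29.5 and 24.1 CPM at day 65. It was lowest in the day 65 libraries, by a log2 fold change of -0.70 ± 0.12 against day 50 (adjusted p = 0.000858), but with length and GC trends removed the sign turned, at 0.12. Rsph3a was at 36.9, 32.0 and 40.5 CPM at day 8, at 38.1, 43.7 and 37.3 CPM at day 50, and at 41.5, 24.3 and 31.3 CPM at day 65. Rsph3b was at 32.3, 45.7 and 37.1 CPM at day 8, at 46.9, 51.3 and 49.0 CPM at day 50, and at 52.0, 44.4 and 56.0 CPM at day 65. Rsph3a was called in no comparison, and Rsph3b only at day 65 against day 8 (0.40, adjusted p = 0.0381), a call lost in 4 of the fits that left out a library, with DESeq2 (0.36, adjusted p = 0.0788) and with scaling by library size alone (0.10, adjusted p = 0.66). These spoke stalk genes are near-identical copies, as are Dnah7a, Dnah7b and Dnah7c, so the split of reads within each set is uncertain.

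**Figure D4:**
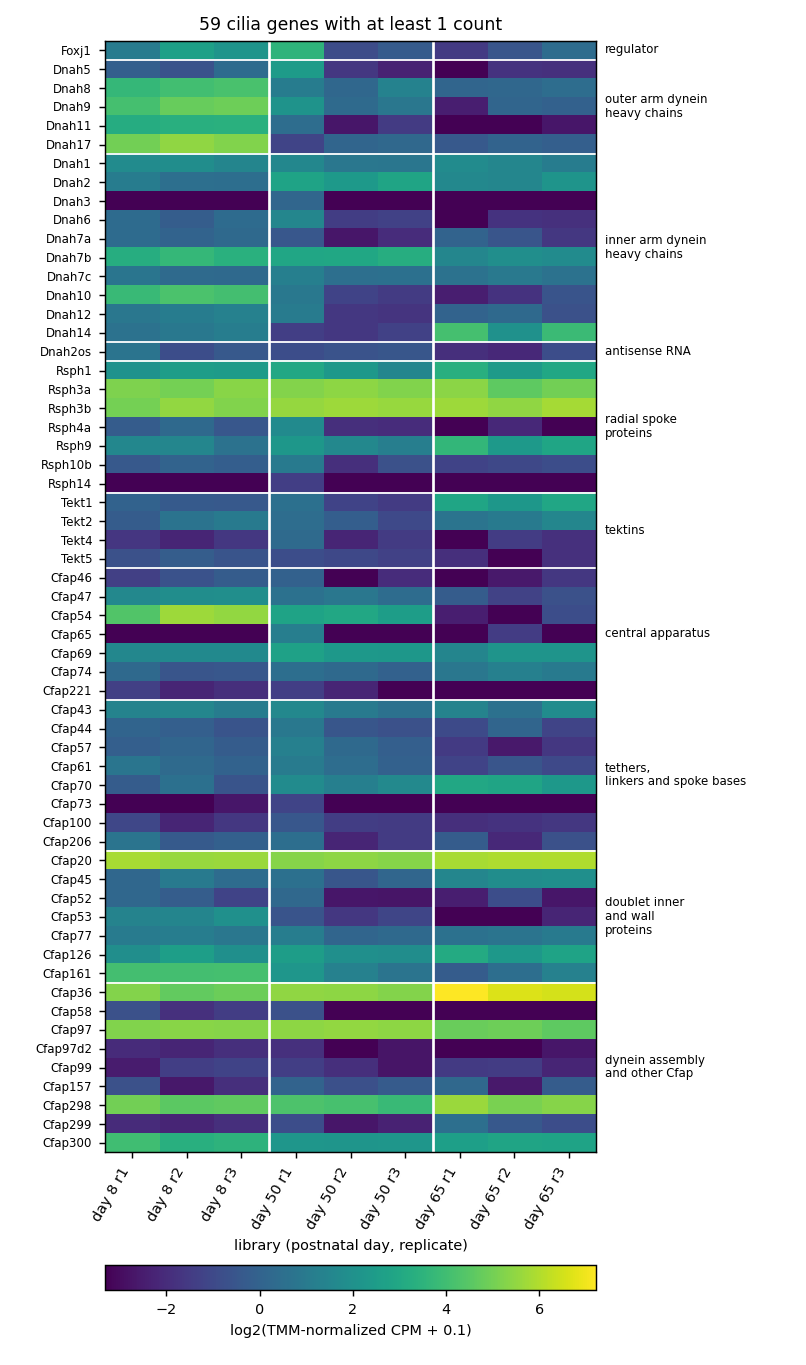
Log2 of CPM plus 0.1 for the 59 cilia genes with at least 1 count, 1 column a library, rows grouped by role. The outer arm chains Dnah17, Dnah9, Dnah8 and Dnah11 are bright at day 8, and the column of day 50 replicate 1 is brighter than its 2 neighbours for Foxj1, Dnah5, Rsph4a and Cfap65.

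Partner genes were called in both directions at day 65 against day 50, where 27.5% of all tested genes were higher and 28.4% lower. Dnajb13, a spoke chaperone, was at 153, 71.2 and 101 CPM at day 65, against 21.5, 20.6 and 18.7 CPM at day 50, and the log2 fold change was 2.42 (adjusted p = 0.000427). With Spef1 (1.12) and Spef2 (1.29), proteins of the central pair, it was 1 of 3 genes called higher, with 1 lower, of 9 tested central pair and spoke partners, a share near that of all genes. Of 4 tested outer arm docking genes, Efcab1 (calaxin) and Ccdc114 rose at day 65 against day 50, by 1.57 and 1.29. Armc4, also of that complex, was at 0 in all day 65 libraries, against 0.915, 0.0557 and 0.153 CPM at day 50 (adjusted p = 0.0292). For Armc4 day 50 replicate 1 was at least 3-fold above both other day 50 libraries. Of 8 tested doublet inner genes 3 were higher and none lower, and of 12 tested dynein arm assembly factors 4 were higher and 2 lower. The other lists divided as follows: 1 of 8 transcription factors higher and none lower, 1 of 10 nexin link genes higher and 1 lower, 1 of 11 multiciliated cell genes higher and 2 lower, and 2 of 4 dynein intermediate and light chains in each direction. The intraflagellar transport and primary cilium list had 7 higher and 13 lower of 32 tested at day 65 against day 50, with a median of -0.36, against -0.06 over all tested genes.

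Foxj1, the master factor, had no call in any comparison, and its day 50 values split. It was at 2.0, 6.23 and 4.28 CPM at day 8, at 11.4, 0.446 and 0.713 CPM at day 50, and at 0.249, 0.589 and 1.21 CPM at day 65. Day 50 replicate 1 was the highest of the 9 libraries and the other 2 day 50 libraries lay below every day 8 library. The log2 fold change was -0.01 ± 1.00 at day 50 against day 8 (adjusted p = 0.997) and became -2.78 without day 50 replicate 1 (adjusted p = 0.0164). At day 65 against day 50 it was -2.55 ± 1.14 (adjusted p = 0.0804) and turned to 0.28 without that library. At day 65 against day 8 it was -2.56 (adjusted p = 0.074), and the libraries did not overlap. DESeq2 called that comparison (-2.65, adjusted p = 0.0139).

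Day 50 replicate 1 stood apart in this way for many members. Of the 58 members with at least 5 counts in that library, 20 (34.5%) were at least 3-fold above both other day 50 libraries, against 346 of 18025 other rows (1.92%). In each of the other 8 libraries 0 or 1 member met the same rule, which was chosen after the values were seen and carries no test. The minimum of 5 counts was applied in the library being compared, for members and other rows alike. Genes near 0 in the other libraries thus entered only through a high value there. By the same minimum 38 members entered for day 50 replicate 2 and 44 for replicate 3. Dnah5 was at 0.816, 0.524 and 1.18 CPM at day 8, at 5.49, 0.223 and 0.102 CPM at day 50, and at 0, 0.196 and 0.172 CPM at day 65. Dnah6, an inner arm chain, was at 1.19, 0.757 and 1.18 CPM at day 8, at 2.8, 0.279 and 0.306 CPM at day 50 and at 0, 0.196 and 0.172 CPM at day 65. Rsph4a, a spoke head protein of tract and airway cilia, was at 0.742, 1.11 and 0.619 CPM at day 8, at 3.2, 0.167 and 0.153 CPM at day 50, and at 0, 0.131 and 0 CPM at day 65. In all 3 genes the day 50 libraries other than replicate 1 lay below day 8.

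The filter left some of these genes untested. Cfap65 had 38 counts in day 50 replicate 1 and 0 in the other day 50 libraries, Dnah3 had 18 against 0 and 0, and Tekt4 had 20 against 2 and 5. The fall of Dnah5 at day 65 against day 50, -3.80 on the log2 scale (adjusted p = 0.0453), became -0.27 without that library (adjusted p = 0.843), and for Dnah6 -3.02 became -1.11. For Rsph4a, with 2 counts at day 65 against 62 at day 50, a level 25.2-fold lower (interval 6.69 to 213), the log2 value without that library was -1.67 (adjusted p = 0.253). Without it 5 members, not 13, were lower at day 65 than at day 50. Cfap57 was at 0.816, 0.989 and 0.731 CPM at day 8, at 2.34, 1.11 and 0.815 CPM at day 50, and at 0.249, 0.0654 and 0.23 CPM at day 65. The day 65 libraries were the lowest, and the log2 fold change of -2.93 ± 0.62 against day 50 (adjusted p = 0.00254) kept its call in every leave-one-out fit. Cfap61, a spoke base protein, was at 1.63, 1.16 and 0.9 CPM at day 8, at 2.0, 1.28 and 0.866 CPM at day 50, and at 0.332, 0.589 and 0.402 CPM at day 65. Its call against day 50 (-1.62, adjusted p = 0.0164) was lost without day 50 replicate 1 (-1.25) or day 65 replicate 1 (-1.47).

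**Figure D5:**
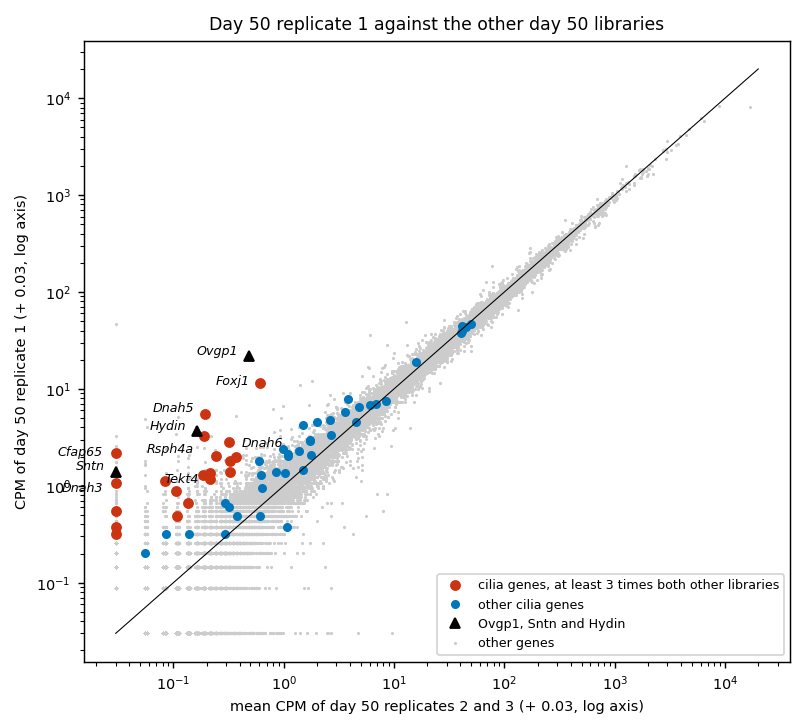
CPM of day 50 replicate 1 against the mean of day 50 replicates 2 and 3, both plus 0.03 on log axes, for all genes; the line marks equal levels. The 20 cilia genes at least 3 times above both other libraries, in red, lie above the cloud of other genes, with Foxj1 at 11.4 CPM among the highest. Black triangles mark Ovgp1 (21.6 CPM), Sntn and Hydin, which are not among the 20.

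Partner genes named after their values were seen did the same. In day 50 replicate 1, against the other day 50 libraries, Hydin (central pair) was at 3.6, against 0.167 and 0.102 CPM, and Sntn (sentan, a ciliary tip protein) at 1.37, against 0 and 0 CPM. By list the genes apart were 6 of 12 central pair and spoke partners, 5 of 11 nexin link genes, 6 of 16 multiciliated cell genes, 3 of 7 dynein intermediate and light chains, 2 of 8 transcription factors, 2 of 12 dynein arm assembly factors, 1 of 5 outer arm docking genes and 0 of 8 doublet inner genes, against 0 of 32 intraflagellar transport genes. Among cell type markers, 1 of 11 of the oviduct secretory list stood apart, Ovgp1, at 21.6 CPM, against 0.39 and 0.51 CPM. None of 11 ovarian surface epithelium, 13 oocyte, 12 granulosa or 10 theca and stroma markers did. The lists differ in level, on which a 3-fold rule depends. In replicates 2 and 3 the intraflagellar transport genes summed to 846 and 840.9 CPM, against 39.63 and 36.74 CPM for central pair and spoke partners. A gain in CPM like that of Hydin need not reach 3-fold in lists with higher levels, so their counts of 0 cannot show its absence. The sum of the oviduct list was 802 CPM in replicate 1, against 748.8 and 509.8 CPM in the others. Their part in the result was not tested.

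Promoters of Dnah5, Dnah6 and Tekt4, examples of the genes apart in day 50 replicate 1, are shown beside a motif search. The search covered 250 bases before the start in both orientations. The letters are credited to RefSeq (GRCm38.p6), and capitals mark the paired RFX arms GTTGC and GCAAC set 2 to 4 bases apart, or CAATTA, the NOBOX site.
Dnah5 (chr15:28203516-28203765, plus strand): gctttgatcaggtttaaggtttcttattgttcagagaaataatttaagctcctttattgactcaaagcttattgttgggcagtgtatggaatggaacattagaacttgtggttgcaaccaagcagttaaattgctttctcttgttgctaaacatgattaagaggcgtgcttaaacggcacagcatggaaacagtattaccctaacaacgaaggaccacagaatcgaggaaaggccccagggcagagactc
Dnah6 (chr6:73221632-73221881, minus strand): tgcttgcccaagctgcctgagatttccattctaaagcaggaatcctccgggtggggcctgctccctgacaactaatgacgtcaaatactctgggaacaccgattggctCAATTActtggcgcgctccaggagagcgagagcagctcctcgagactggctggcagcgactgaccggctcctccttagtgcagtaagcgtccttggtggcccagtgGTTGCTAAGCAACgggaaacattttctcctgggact
Tekt4 (chr17:25471340-25471589, plus strand): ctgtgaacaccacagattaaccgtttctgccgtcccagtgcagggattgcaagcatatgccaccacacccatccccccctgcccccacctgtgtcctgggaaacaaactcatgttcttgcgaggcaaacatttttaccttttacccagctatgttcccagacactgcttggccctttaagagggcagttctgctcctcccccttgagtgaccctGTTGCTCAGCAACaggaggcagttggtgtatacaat
Of 56 promoters of 49 members, 9 (16.1%) held the paired form, against 0.353% of all 32851 promoters searched. They belong to Cfap298, Cfap44, Dnah6, Dnah7a, Dnah7b, Dnah7c, Tekt2 and Tekt4, and the Tekt2 windows overlap. Dnah7a, Dnah7b and Dnah7c are near-identical copies, so the 9 are not all independent. The same copies, and repeated entries of Tekt2 and Cfap74, are also among the promoters with the RFX core. Dnah6, Dnah7a and Tekt4 stood apart in day 50 replicate 1, and the other genes with the paired form did not. Of the 20 members apart in that library, these were the only ones found with the paired form. The promoters shown are thus not typical of the 20. The RFX core GTTGCC alone, which can overlap the paired form, was in 30.4%, against 10.4% of all, the forkhead core TGTTTAC in 7.14%, against 3.17%, and the NOBOX site TAATTG in 3.57%, against 7.17%. No match says only that these letters are not in the window.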

How the data were processed

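Ovary RNA was sequenced from 9 libraries, 3 for each of postnatal days 8, 50 and 65. Per the labels, libraries were made from total RNA with a NuGEN mRNA kit. The sources used here give neither aligner nor strand setting, and the submitters' processing notes name builds GRCm38 and mm10. Per the file headers, the authors' deposited RSEM tables hold expected counts, TPM, FPKM (not used) and lengths for each gene. Expected counts were rounded, filtered (filterByExpr), scaled by TMM and tested with edgeR 4.0.16 (R 4.3.3) with 1 term per age over all 9 libraries, Benjamini-Hochberg adjusted over 17747 genes. The procedure was tested on simulated data. Intervals are exact binomial at 95%, for counting error only.

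The members, gene lists and rules were chosen with earlier results of these data known. Named with every library's value are Foxj1, in each comparison the 12 called members with the largest absolute log2 fold change and a mean of at least 0.5 CPM, and the 6 highest by mean TPM; from other lists, up to 4 called members by p, of which those given with library values were chosen after these were seen. Of 195 symbols in the other lists 190 had a row, and the rest were not analysed here. Gene positions are those of the files; of the 56 members with one, 43 matched GENCODE M21. Alternatives were DESeq2 1.42.0, other scalings and filters, trends in length and GC removed, 2 ages at a time, a replicate term and leaving out each library. The result of 1 gene of these lists is not reported here.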

Additional observations from a re-analysis of the deposited data

How the results depend on the processing

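The count of members higher at day 50 than at day 8 was 3, and 5 with the length trend removed or with length and GC trends removed, an alternative chosen after seeing the data. The count higher at day 65 than at day 50 was 10, and 6 with scaling by library size only; the count lower was 13, and 7 with 2 ages only or 8 with length and GC trends removed. Leaving out each library gave 2 to 4 higher and 10 to 15 lower at day 50 against day 8, 6 to 11 higher and 5 to 15 lower at day 65 against day 50, and 9 to 11 higher and 14 to 20 lower at day 65 against day 8; for members lower at day 65 than at day 50, the count was 5 without day 50 replicate 1 and 7 without day 65 replicate 1, and for members higher it was 6 without day 50 replicate 2. Signs turned for Cfap20 at day 50 against day 8 (0.05 with length and GC trends removed), for Cfap97 at day 65 against day 50 (0.12 with length and GC trends removed) and against day 8 (0.13 with the length trend and 0.41 with both removed), and for Foxj1 at day 50 against day 8 (0.06 with the length trend removed, 0.07 without a low-count filter, 0.43 without day 8 replicate 2, 0.07 without day 8 replicate 3, 0.59 without day 50 replicate 2 and 0.56 without day 50 replicate 3) and at day 65 against day 50 (0.28 without day 50 replicate 1); over the fits that left out a library Foxj1 ranged over -2.78 to 0.59 and -3.25 to 0.28; the cause was not tested. The median log2 fold change of all tested genes at day 65 moved to -0.31 against day 50 and -0.34 against day 8 with library size only, and to 0.12 and 0.25 with length and GC trends removed. With the replicate block the counts were 3 and 13, 8 and 9, and 9 and 16. Same-numbered libraries correlated at -0.0432 to 0.052 over 9 pairs. These correlations are of deviations from means of 3 libraries, so they show no pairing by number but cannot exclude it. Foxj1 passed with DESeq2 at day 65 against day 8 (-2.65, adjusted p = 0.0139). Members with few counts, such as Rsph4a, are limited by depth.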
